A study of Mus musculus with 15 samples.

Results

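A set of 9 genes was followed among the 55401 genes counted in the hippocampus of 15 mice. Of these, 8 are markers of the choroid plexus epithelium (Ttr, Kl, Folr1, Clic6, Enpp2, Aqp1, Slc4a5 and Otx2), and the other is Baiap2l1, which was chosen by its high CPM in the DHA-treated Tg2576 mice. Members were matched by gene symbol, and all 9 passed the filter on low counts that kept 19536 genes. The high Baiap2l1 level in that group is therefore a description and not a finding.

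The samples were hippocampal RNA from female mice in 4 groups, aged 18 to 20 months by the methods of the study. Its discussion mentions a higher age for the mice. The WT vehicle group (n = 4) and the Tg2576 vehicle group (n = 4) received sesame oil, whereas the WT DHA group (n = 4) and the Tg2576 DHA group (n = 3) received the omega-3 fatty acid DHA (docosahexaenoic acid) at 450 mg/kg in that oil, once a day by the intragastric route for 5 weeks. The Tg2576 mice (labelled Tg2576 +/+) carry human APP with the Swedish mutation driven by the hamster prion promoter, which is active across the brain, and the WT mice (labelled Tg2576 -/-) are their negative littermates. Total counts ranged from 17372864 to 46596489 per mouse (median 25645977), and levels are given below as CPM, each count relative to its library size in the usual CPM unit after TMM scaling. All libraries ran on the same lane according to the names in the headers, which leaves no sequencing batch to compare. The labels number the samples of a group without saying that each is a separate animal, so p-values measure only the spread between these samples, which are called mice here.

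The choroid plexus is a vascular fringe in each brain ventricle, covered by an epithelium that secretes the cerebrospinal fluid. In the lateral ventricle it lies along the fimbria, next to the hippocampus but outside it. Its epithelial cells make transthyretin in very large amounts, take up folate and move water, sodium and bicarbonate toward the ventricle, so a few of these cells can be seen in bulk RNA through a small set of abundant transcripts. Baiap2l1 encodes an I-BAR domain protein (also called IRTKS), one of a family that binds curved plasma membrane and links it to actin assembly, and it is known from epithelial microvilli.

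Of the 9 members, 5 had a promoter window in the RefSeq table used here (GRCm38.p6), which runs from 250 bases before to 50 bases after an annotated start. Otx2 encodes a homeodomain factor of the choroid plexus lineage, and the core of its known recognition sequence, TAATCC, was the 1 motif searched, on both strands. The core was found in 1 of the 8 windows of these 5 genes, an Otx2 window 211 bases before its start, against 7.06% of all 32851 windows in the table. The windows of Baiap2l1 and Kl and the Otx2 window with the core are shown, Baiap2l1 as the gene whose pattern differs from that of the markers and Kl as the marker on its chromosome. Capitals mark the core, which reads in reverse complement here.
Baiap2l1, chr5:144358063-144358362, minus strand: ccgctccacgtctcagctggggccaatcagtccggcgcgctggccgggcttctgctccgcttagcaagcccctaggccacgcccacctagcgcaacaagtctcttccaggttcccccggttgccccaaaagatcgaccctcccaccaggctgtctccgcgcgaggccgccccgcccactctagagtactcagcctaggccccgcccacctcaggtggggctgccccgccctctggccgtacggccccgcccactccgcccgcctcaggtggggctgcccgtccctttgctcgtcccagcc
Kl, chr5:150952357-150952656, plus strand: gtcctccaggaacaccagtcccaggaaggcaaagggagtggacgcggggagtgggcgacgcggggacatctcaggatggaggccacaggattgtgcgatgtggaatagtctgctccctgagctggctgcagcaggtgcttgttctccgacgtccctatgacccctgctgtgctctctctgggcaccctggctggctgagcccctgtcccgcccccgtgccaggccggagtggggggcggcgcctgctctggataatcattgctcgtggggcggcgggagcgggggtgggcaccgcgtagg
Otx2, chr14:48665060-48665359, minus strand: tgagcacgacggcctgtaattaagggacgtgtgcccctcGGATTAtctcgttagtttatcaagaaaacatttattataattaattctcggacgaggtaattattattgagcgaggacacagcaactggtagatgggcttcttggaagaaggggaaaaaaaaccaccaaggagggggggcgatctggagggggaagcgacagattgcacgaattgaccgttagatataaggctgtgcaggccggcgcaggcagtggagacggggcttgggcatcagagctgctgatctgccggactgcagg
The Baiap2l1 and Kl windows held 71.0% and 67.3% G and C, and the Otx2 window held 51.0%, where the median of all windows was 52.7%. No match says only that these letters are not in this window.

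The level of the choroid plexus markers varied widely between mice of the same group in 3 of the 4 groups. Ttr encodes transthyretin, the carrier of thyroxine and retinol-binding protein in the cerebrospinal fluid (ENSMUSG00000061808.4, chromosome 18, 20665280 to 20674321, plus strand, GRCm38). It stood at 2486, 51.5, 3590 and 128 CPM in WT vehicle mice 1 to 4 and at 33.5, 304, 5603 and 119 CPM in WT DHA mice 1 to 4. In Tg2576 vehicle mice 1 to 4 it was 1075, 2970, 401 and 117 CPM, and in Tg2576 DHA mice 1 to 3 it was 4964, 3145 and 2908 CPM. The highest mouse exceeded the lowest 167-fold, both were WT DHA mice, and the 3 Tg2576 DHA mice, all high, overlapped with the highest mice of each other group. Per kilobase of exon Ttr was the most abundant member, with a mean of 1568 CPM per kb.

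**Figure D1:**
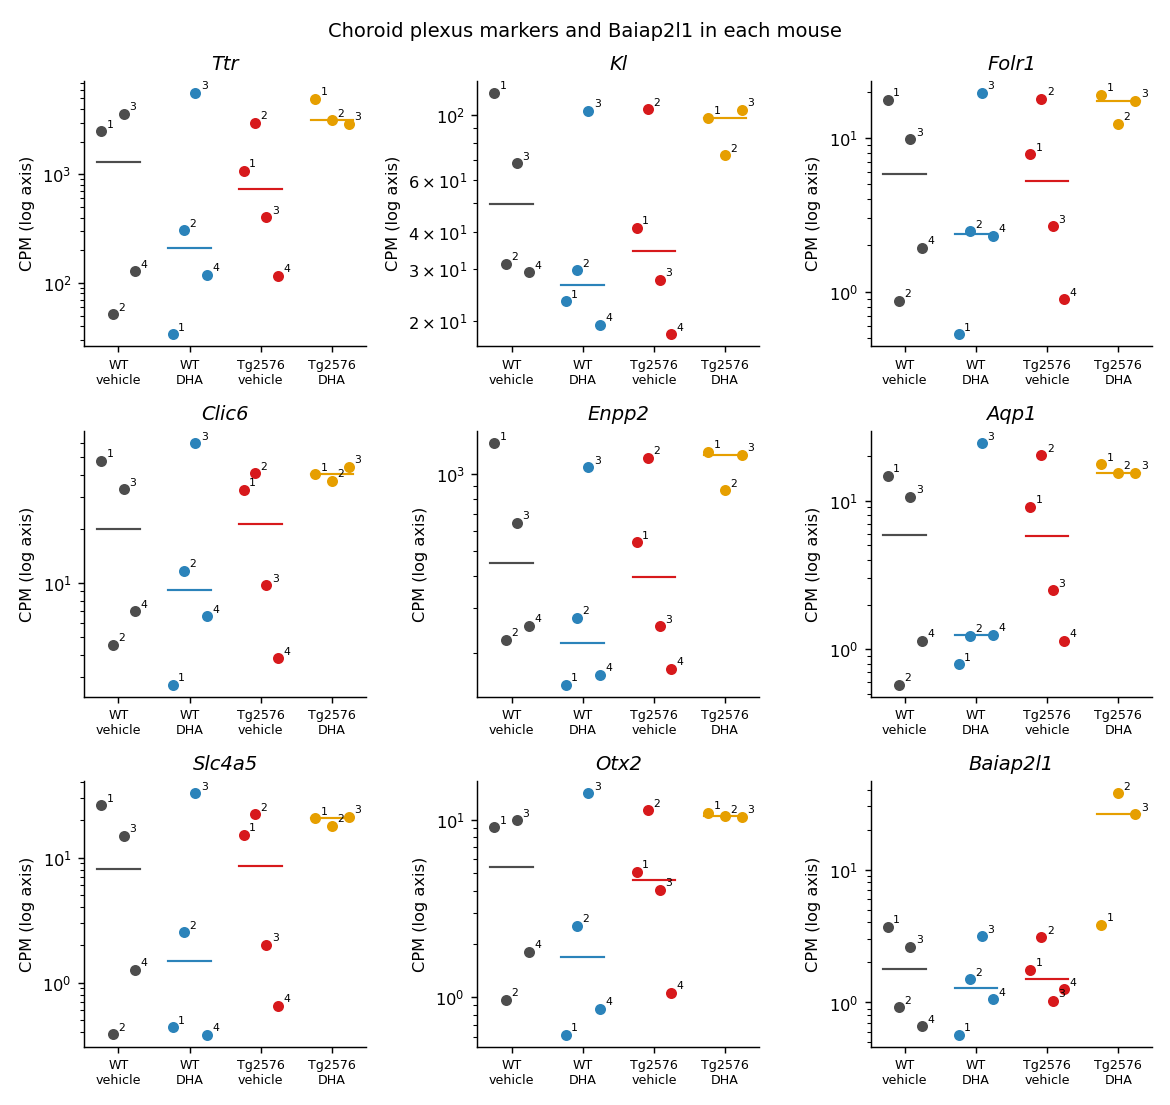
CPM after TMM scaling (log axes) of the 8 choroid plexus markers and Baiap2l1 in each of the 15 mice, by group, where points are mice numbered by replicate and lines are group medians. The markers share their high and low mice, with WT DHA mouse 3 at 5603 CPM of Ttr among WT DHA mice at 33.5 to 304 CPM, whereas Baiap2l1 has 2 Tg2576 DHA mice at 37.5 and 26.1 CPM above all others.

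The transporters and channels of the epithelium varied in the same way. Slc4a5 encodes an electrogenic sodium bicarbonate cotransporter (ENSMUSG00000068323.12, chromosome 6, 83219828 to 83304945, plus strand). Its levels were 26.2, 0.387, 14.9 and 1.26 CPM in WT vehicle mice 1 to 4, 0.440, 2.53, 32.7 and 0.384 CPM in WT DHA mice, 15.2, 22.2, 2.02 and 0.650 CPM in Tg2576 vehicle mice, and 20.7, 17.9 and 21.3 CPM in Tg2576 DHA mice. The lowest of these came from 8 counts. Aqp1, the water channel of the epithelium (ENSMUSG00000004655.5, chromosome 6, 55336432 to 55348555, plus strand), stood at 14.7, 0.580, 10.6 and 1.14 CPM in WT vehicle mice and at 0.792, 1.23, 24.3 and 1.25 CPM in WT DHA mice. It stood at 9.08, 20.1, 2.49 and 1.14 CPM in Tg2576 vehicle mice and at 17.5, 15.4 and 15.4 CPM in Tg2576 DHA mice. In both genes the same WT mice are high (vehicle 1 and 3, DHA 3), and groups that differ in genotype alone or in DHA alone overlap. Clic6, a chloride intracellular channel protein (ENSMUSG00000022949.9, chromosome 16, 92485736 to 92541243, plus strand), ranged from 2.73 CPM in WT DHA mouse 1 to 59.9 CPM in WT DHA mouse 3, a 21.9-fold range.

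Folr1 encodes the folate receptor alpha, through which the epithelium takes up folate (ENSMUSG00000001827.12, chromosome 7, 101858331 to 101870788, minus strand). It was 17.6, 0.870, 9.80 and 1.93 CPM in WT vehicle mice, 0.528, 2.47, 19.6 and 2.30 CPM in WT DHA mice, 7.83, 18.001, 2.66 and 0.894 CPM in Tg2576 vehicle mice, and 19.0, 12.3 and 17.4 CPM in Tg2576 DHA mice. Otx2 itself (ENSMUSG00000021848.16, chromosome 14, 48657677 to 48673819, minus strand) was 9.11, 0.967, 9.97 and 1.81 CPM in WT vehicle mice and 0.616, 2.53, 14.1 and 0.864 CPM in WT DHA mice. It was 5.11, 11.3, 4.04 and 1.06 CPM in Tg2576 vehicle mice and 10.98, 10.5 and 10.4 CPM in Tg2576 DHA mice. As for Ttr, Tg2576 vehicle mice 1 and 2 stood above mice 3 and 4 in both genes, and groups that differ in genotype alone or in DHA alone overlapped.

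The secreted proteins Kl and Enpp2 had narrower ranges. Kl encodes klotho, a co-receptor of fibroblast growth factor 23 that the choroid plexus sheds into the fluid and that some neurons also make (ENSMUSG00000058488.7, chromosome 5, 150952607 to 150993817, plus strand). It ranged from 18.01 CPM in Tg2576 vehicle mouse 4 to 118 CPM in WT vehicle mouse 1, a 6.57-fold range. Enpp2 encodes autotaxin, which makes lysophosphatidic acid and which oligodendrocytes express as well (ENSMUSG00000022425.16, chromosome 15, 54838901 to 54952892, minus strand). It ranged from 151 CPM in WT DHA mouse 1 to 1319 CPM in WT vehicle mouse 1, an 8.75-fold range, and had 110 CPM per kb on average, the second level per length after Ttr. The 9 oligodendrocyte genes, whose summed level ranged 1.74-fold, had r = 0.126 with the choroid plexus level over 15 mice (Spearman's rho 0.400), with r = 0.283 within the 7 mice in which that level was lower and 0.809 within the 8 in which it was higher. Ordered by mean CPM per kb, Ttr and Enpp2 were followed by Clic6 (6.51), Kl (6.35), Folr1 (3.86), Aqp1 (3.45), Slc4a5 (2.05), Baiap2l1 (1.76) and Otx2 (1.48). Neighbours in this order below Enpp2 differ by far less than the range between mice of each gene.

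The 8 markers moved together across mice. Over the 28 pairs, Pearson's r of log2 CPM (prior count 2) ranged from 0.903 to 0.988 with a median of 0.964, and the median of Spearman's rho was 0.918. After the group means were removed the median r was still 0.964, and the shared variation was thus present within groups. The mean log2 CPM of the 8 markers, called the choroid plexus level below, ran from 1.99 in WT DHA mouse 1 to 6.61 in WT DHA mouse 3, and their summed CPM differed 32.5-fold. Its widest gap between neighbouring mice was 1.43 (from 3.83 to 5.26, where the next widest gap was 0.52), with 7 mice below and 8 mice above. Every one of the 8 markers had its 8 highest values in the same 8 mice. These were 2 of 4 WT vehicle mice, 1 of 4 WT DHA mice, 2 of 4 Tg2576 vehicle mice and 3 of 3 Tg2576 DHA mice. Because the mice fall into 2 sets, the median r is also given within them, at 0.770 for the 7 lower mice and 0.777 for the 8 higher mice. These correlations share libraries and depth and are a description. In bulk tissue, fewer cells of a type and less RNA per cell cannot be told apart.

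The level was 4.39 ± 1.92 log2 CPM in WT vehicle mice (SD, n = 4), 3.74 ± 2.03 in WT DHA mice (SD, n = 4), 4.48 ± 1.63 in Tg2576 vehicle mice (SD, n = 4) and 6.18 ± 0.18 in Tg2576 DHA mice (SD, n = 3). The Tg2576 DHA mice lay close together, at 5.99 to 6.34, and the highest mice of the other groups, at 6.26, 6.61 and 6.28, lay within or above that range.

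A further list of 44 choroid plexus genes, none of them members, was used to check the label. Of these 43 were tested, and C1qtnf5, which is transcribed together with Mfrp, had no count in any mouse. Their mean log2 CPM followed the 8 markers with r = 0.995 over 15 mice, and 32 of the 43 genes had an r above 0.9. The defining genes Tmem72 (r = 0.990, 0.580 to 75.6 CPM), Kcnj13, a potassium channel of the apical membrane (r = 0.980, 0.0880 to 10.8 CPM), and Cldn2, the claudin of its leaky tight junctions (r = 0.979, 0.193 to 12.4 CPM), spanned more than an order of magnitude over the mice. In 26 of the 43 genes the same 8 mice held the 8 highest values. The list was chosen with earlier results of these data known, so its values describe the label and are no independent test of it. Among the genes tested the lowest r were 0.381 for Slc29a4, 0.494 for Ezr, 0.509 for Slc5a5 and 0.541 for Car12. The 5 most abundant per length were Igfbp2, an insulin-like growth factor binding protein (18.2 to 136 CPM, r = 0.925), Ezr, the microvillar linker ezrin (60.4 to 123 CPM, r = 0.494), 1500015O10Rik, the secreted peptide augurin (0.704 to 43.7 CPM, r = 0.972), Slc29a4, a monoamine transporter (30.3 to 62.2 CPM, r = 0.381), and Col9a3, a collagen chain (16.1 to 106 CPM, r = 0.907).

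Over all 19536 genes tested, 82 had an r above 0.9 with the choroid plexus level, of which 8 were the markers, 32 were on the further list and 42 were on neither. No gene had an r below -0.9. Outside the lists the closest were Col4a4, a basement membrane collagen chain (r = 0.980, 0.772 to 7.75 CPM), Pla2g5, a secreted phospholipase (r = 0.975, 0.532 to 7.03 CPM), Rbm47, an RNA-binding protein (r = 0.969), Slc2a12, a hexose transporter (r = 0.969), and Cdh3, P-cadherin (r = 0.967).

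**Figure D2:**
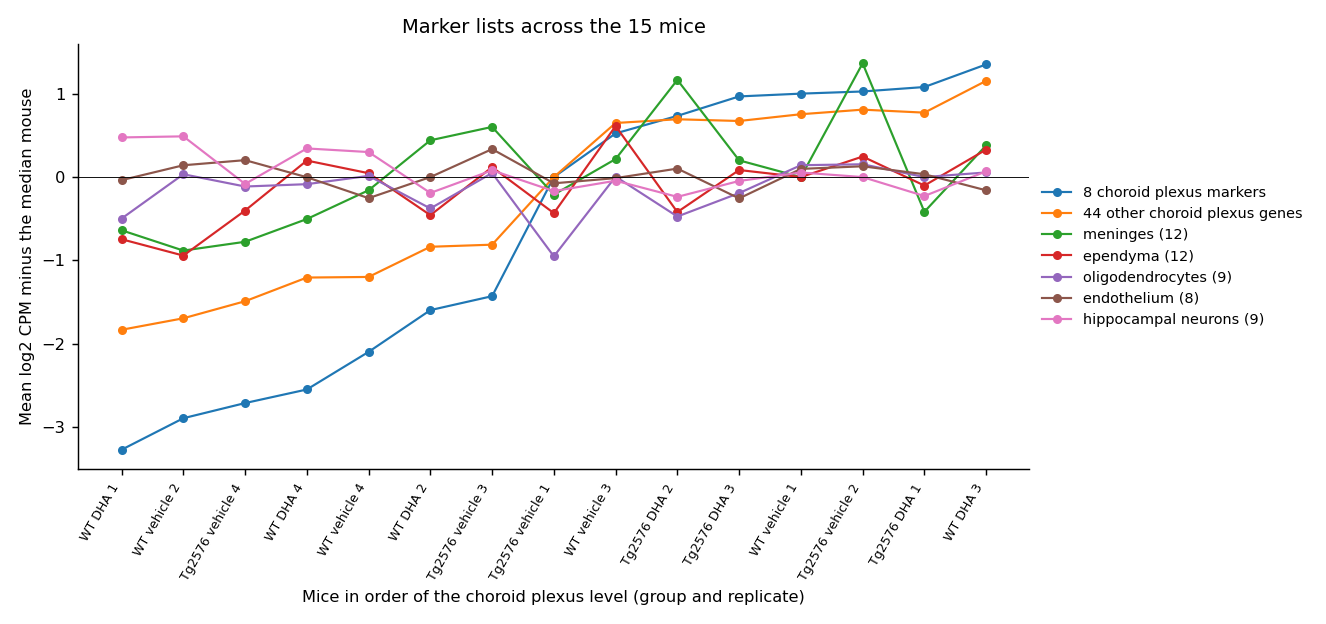
Mean log2 CPM of 7 marker lists in the 15 mice, each minus its median mouse, with the mice in order of the choroid plexus level (x axis). The 8 markers and the 44 further choroid plexus genes climb together (r = 0.995), while r over all 15 mice is 0.126 for the oligodendrocyte list (0.809 within the 8 higher mice), -0.189 for the endothelial list and -0.654 for the hippocampal neuron list.

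Genes of neighbouring tissue were measured in the same mice, where the summed CPM of the 44 further choroid plexus genes ranged 3.68-fold. The 12 genes of the ependyma, the ciliated lining of the ventricle, followed the choroid plexus level with r = 0.545, and their summed CPM ranged 2.51-fold. Pltp (33.7 to 81.3 CPM) and Foxj1, the master factor of motile cilia (11.5 to 35.4 CPM), were the most abundant per length. The 12 genes of the meninges had r = 0.612 (0.937 within the 7 lower and 0.203 within the 8 higher mice) and a 3.99-fold range, led per length by Dcn (9.35 to 55.5 CPM) and Slc13a3 (6.24 to 25.9 CPM). The meningeal sum was highest in a Tg2576 vehicle mouse (184 CPM) and a Tg2576 DHA mouse (177 CPM). The endothelial list, led by Cldn5 and Itm2a, had r = -0.189. The thalamus and habenula list, led by Prkcd and Ramp3, had r = -0.174 (0.815 within the 7 lower and -0.605 within the 8 higher mice). The 9 hippocampal neuron genes, led by Neurod6 (116 to 185 CPM) and Wfs1 (145 to 245 CPM), had a negative r each and r = -0.654 as a list (0.455 within the 8 higher mice). No list other than those of the choroid plexus held a gene with an r above 0.9. Their part in the results on the markers was not tested.

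Genotype under vehicle, the first comparison, asked how Tg2576 mice differed from WT mice without DHA. None of the 8 markers was called by the quasi-likelihood F test of edgeR at the study's threshold, an unadjusted p of 0.01, which 3.09% of all tested genes passed. None had a p under 0.05 (10.7% of all genes) or groups that did not overlap (5.16% of all genes). An adjusted p under 0.05 was reached by 0 markers in any comparison, and by 0.0154% of all genes in this one, 0.00512% under genotype under DHA and 0% in the other 3. The log2 fold changes of Tg2576 against WT ran from -0.45 for Ttr (SE 1.598, 95% interval -3.96 to 3.05, adjusted p = 0.946 by edgeR) to 0.27 for Aqp1. Their median was -0.11, where the median of all tested genes was 0.00030. Of the 43 further genes 0 were called, 13 had a positive fold change and the median was -0.21. Leaving out WT vehicle mouse 3 turned the Ttr value to 0.36. Among the other lists, Ly6c1 of the endothelial list was higher in Tg2576 mice (log2 fold change 0.58, adjusted p = 0.250 by edgeR), Tac2 of the thalamus and habenula list was higher by 0.75, and the hippocampal genes Prox1 and Zbtb20 were lower (-0.46 and -0.63), all past the unadjusted threshold and none past an adjusted p of 0.05.

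Genotype under DHA compared Tg2576 DHA with WT DHA mice. Again 0 of the 8 markers were called, against 1.75% of all genes, and 0 had a p under 0.05 (6.86% of all genes). All 8 fold changes were positive, from 1.02 (Clic6) to 1.41 (Folr1) on the log2 scale, with a median of 1.25 against -0.0035 over all tested genes. Enpp2 had the lowest p of the 8 (log2 fold change 1.40, SE 0.868, 95% interval -0.50 to 3.31, adjusted p = 0.798 by edgeR), and for Ttr the interval ran from -2.48 to 5.04. None of the 8 had groups that did not overlap (8.56% of all genes), because WT DHA mouse 3 lay within or above the range of the Tg2576 DHA mice. It was the only WT DHA mouse of the higher set, so leaving it out sets lower mice against higher mice. A rise in genes that follow the choroid plexus level is then built in. Without that mouse the median rose to 3.06 and 0 of the 8 markers were called. In that fit 7 of the 43 further genes were called, all higher in Tg2576 DHA mice, where 1.76% of all genes passed. Most of the further genes vary together, so these calls are a description and not 7 independent results. Ttr in that fit was at 4.59 with an unadjusted p of 0.0229 by edgeR, under 0.05 but above the threshold. With all mice 0 of the 43 further genes were called and 2 had a p under 0.05, Slc5a5, the sodium iodide symporter (log2 fold change 0.70, adjusted p = 0.639), and Slco1a5, an organic anion transporter (2.26, adjusted p = 0.672 by edgeR). Slco1a5 was near the floor, at 0 to 1.03 CPM with a median of 0.211 CPM. Slc5a5 followed the choroid plexus level only loosely (r = 0.509). Of the 43, 40 were positive with a median of 0.78. Of the 12 meningeal genes 0 were called, all 12 were positive and the median was 0.53, where under vehicle 11 of the 12 were positive with a median of 0.61, and their part in the values of the markers was not tested. Hippocampal Wfs1 and Lct were lower in Tg2576 DHA mice (-0.40 and -0.98) and thalamic Prkcd was lower (-0.58), each past the unadjusted threshold.

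DHA in WT mice gave no called marker, against 1.38% of all genes, none with a p under 0.05 (5.92%) and none with groups that did not overlap (5.02%). The 8 fold changes ran from -0.57 (Enpp2) to -0.02 (Aqp1) with a median of -0.30 (-0.01 over all tested genes), and the Ttr value was -0.05 (SE 1.59, 95% interval -3.55 to 3.45, adjusted p = 0.997 by edgeR). The value depended on single mice, with a median of -2.05 and Ttr at -3.36 without WT DHA mouse 3, and a median of 0.34 and Ttr at 0.27 without WT vehicle mouse 1. The Ttr fold change was highest, at 0.77, without WT vehicle mouse 3. Of the 43 further genes 0 were called and 9 were positive. Prox1 fell by 0.37 and Wfs1 rose by 0.31 on the log2 scale, and Tac2 rose by 0.82, all past the unadjusted threshold.

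DHA in Tg2576 mice also gave 0 called markers, against 0.353% of all genes, and 0 markers with a p under 0.05 (3.16%). Of the 43 further genes 0 were called. All 8 fold changes were positive, from 0.89 (Clic6) to 1.69 (Ttr, SE 1.72, 95% interval -2.09 to 5.47, adjusted p = 0.999 by edgeR), with a median of 0.98 against -0.0039 over all tested genes. Of the further genes 41 were positive (median 0.84). In 4 of them, namely Trpv4, Igfbp2, Msx1 and 1500015O10Rik, the groups did not overlap, as in 3.21% of all genes. The interaction of genotype and DHA called 0 of the 8 markers (0.829% of all genes) and 0 of the 43 further genes, and 0 markers had a p under 0.05 (5.12%). The 8 interaction values were positive with a median of 1.36, which ran from 0.75 without WT vehicle mouse 1 to 3.10 without WT DHA mouse 3. In Tg2576 mice Mobp of the oligodendrocyte list and Prkcd of the thalamus and habenula list fell with DHA by 0.46 and by 0.69 on the log2 scale.

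**Figure D3:**
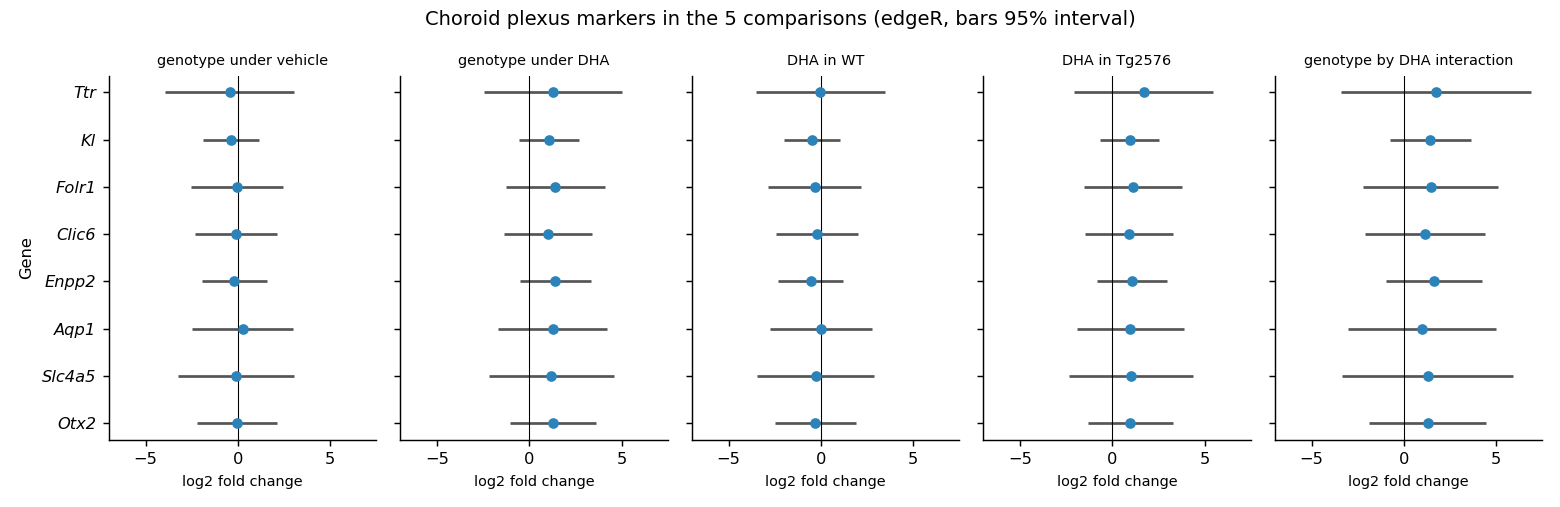
Log2 fold changes of the 8 choroid plexus markers in the 5 comparisons of the edgeR fit over all 15 mice, where points are estimates and bars are 95% intervals. All intervals cover 0, and Ttr under the genotype by DHA interaction runs from -3.42 to 6.88.

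The 5 comparisons share mice, so the positive signs under genotype under DHA, DHA in Tg2576 and the interaction rest on the same 3 Tg2576 DHA mice. The intervals are wide and all cover 0, and a p that misses the threshold does not show that the groups were alike. With 4 mice against 3, an exact permutation test of 1 gene cannot go below p = 0.0571, and with 4 against 4 not below p = 0.0286.

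Baiap2l1 (ENSMUSG00000038859.7, chromosome 5, 144264526 to 144358112, minus strand) was low in 13 mice and high in 2. It stood at 3.73, 0.919, 2.64 and 0.662 CPM in WT vehicle mice 1 to 4, at 0.572, 1.49, 3.16 and 1.06 CPM in WT DHA mice, at 1.76, 3.10, 1.03 and 1.26 CPM in Tg2576 vehicle mice, and at 3.85, 37.5 and 26.1 CPM in Tg2576 DHA mice 1 to 3. The counts behind the last 3 values were 107, 1269 and 674. Tg2576 DHA mice 2 and 3 were 9.74-fold and 6.78-fold above the highest of the other 13 mice, which was Tg2576 DHA mouse 1. That mouse in turn stood just above WT vehicle mouse 1, and the other 3 groups overlapped. The group mean was 22.5 ± 17.1 CPM (SD, n = 3), where the median of the 12 mice of the other groups was 1.38 CPM. These values chose the gene, so the fitted log2 fold changes of 3.86 (genotype under DHA), 3.63 (DHA in Tg2576) and 4.02 (interaction) are given with no test. With the choroid plexus level as a covariate, chosen after seeing the data, they were 2.97, 2.9998 and 3.003.

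The comparisons without the Tg2576 DHA mice were not used by the choice. Under vehicle, the difference between Tg2576 and WT mice in Baiap2l1 did not pass the test (log2 fold change -0.17, SE 0.744, 95% interval -1.78 to 1.45, adjusted p = 0.959 by edgeR). DHA in WT mice gave -0.39 (SE 0.757, 95% interval -2.04 to 1.25, adjusted p = 0.956 by edgeR). Without WT vehicle mouse 1 these values became 0.35 and 0.13, with no p under 0.05. Fitted on only the groups compared, genotype under vehicle gave -0.15 (unadjusted p = 0.790 by edgeR). DHA in WT gave -0.38 in such a fit (unadjusted p = 0.564 by edgeR).

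Baiap2l1 was set against the choroid plexus level in the same mice. Over the 12 mice of the 3 groups that did not choose the gene, a set taken after seeing the data, the Pearson r was 0.927 and Spearman's rho was 0.874. In these 12 mice the 5 of the higher set stood at 1.76 to 3.73 CPM and the 7 of the lower set at 0.572 to 1.49 CPM. Across all 15 mice r was 0.734 and rho was 0.839, which includes the 3 mice that chose the gene. Over the 13 mice other than Tg2576 DHA mice 2 and 3, left out for their Baiap2l1 values after these were seen, r was 0.934. Within the 7 lower mice the r was 0.495, within the 8 higher mice 0.193, and within the 6 higher mice without the 2 that stand apart 0.879. Tg2576 DHA mice 1, 2 and 3 had a choroid plexus level of 6.34, 5.99 and 6.22 and 3.85, 37.5 and 26.1 CPM of Baiap2l1. The summed CPM of the 8 markers in those 3 mice was 6391, 4176 and 4313.

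**Figure D4:**
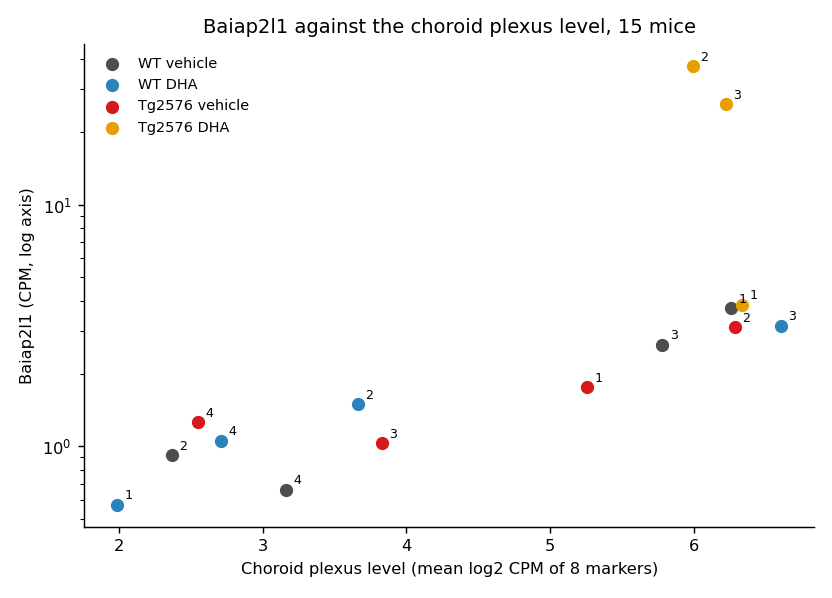
Baiap2l1 in CPM (log axis) against the choroid plexus level, the mean log2 CPM of the 8 markers, with 1 point per mouse numbered by replicate and coloured by group. The 12 mice of the other 3 groups have r = 0.927, and Tg2576 DHA mice 2 and 3, whose values chose the gene, stand above all others at 37.5 and 26.1 CPM.

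No gene had an r above 0.9 with Baiap2l1 over the 15 mice. The 5 most alike were Slc2a10, a facilitative glucose transporter (r = 0.835, 1.35 to 3.81 CPM), Gabre, a GABA-A receptor subunit (r = 0.832, 0.0967 to 0.680 CPM), Mmp2, a matrix metalloproteinase (r = 0.819, 2.25 to 7.28 CPM), Gm534 (r = 0.818, 0 to 1.30 CPM) and Dock2, a Rac activator of blood cells and microglia (r = 0.810, 5.24 to 8.09 CPM). Each had at least 1 of Tg2576 DHA mice 2 and 3 as its highest mouse. The pick by r over all 15 mice favours such genes, so this describes the pick and is not a result. Without those mice the r with Baiap2l1 was 0.629 (Slc2a10), 0.806 (Gabre), 0.772 (Mmp2), 0.750 (Gm534) and 0.630 (Dock2). Baiap2l1 itself spanned a 65.5-fold range. Slc2a10 in Tg2576 DHA mice 1 to 3 was 2.12, 3.81 and 3.10 CPM, against a highest value of 2.90 CPM in the other mice outside replicates 2 and 3.

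The relatives of Baiap2l1 did not share its pattern. In order of mean CPM per kb the I-BAR family was Baiap2, the brain paralog IRSp53 (70.4), Mtss1l (49.5), Mtss1 (3.76), Baiap2l1 (1.76) and Baiap2l2 (1.03). Across mice Baiap2 ran from 285 to 449 CPM, with r = -0.654 with Baiap2l1 and r = -0.811 with the choroid plexus level. Mtss1l ran from 205 to 308 CPM, Mtss1 from 32.2 to 57.3 CPM and Baiap2l2 from 1.25 to 4.22 CPM. Baiap2 was lower in Tg2576 DHA than in WT DHA mice (log2 fold change -0.41, SE 0.116, adjusted p = 0.536 by edgeR). Of the 4 relatives this was the only call at p under 0.01 in the 5 comparisons, where 5.83% of all tested genes had at least 1. Of 10 actin partners of the family, Eps8 (-0.31, adjusted p = 0.316) and Shank3 (-0.39, adjusted p = 0.216 by edgeR) were lower in Tg2576 than WT mice under vehicle at the unadjusted threshold. In that comparison 3.09% of all tested genes passed it. In the other 4 comparisons 0 of the 10 were called.

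The genes around Baiap2l1 were checked in the same mice. Bri3, on the plus strand of chromosome 5, overlaps Baiap2l1 (144244437 to 144446757) and stood at 31.6, 25.2 and 24.2 CPM in Tg2576 DHA mice 1 to 3, within a range over all mice of 21.2 to 32.4 CPM. Gm15708, also on the plus strand within the gene (144277061 to 144280513), stood at 0.432, 0.857 and 0.697 CPM, within a range of 0.207 to 1.25 CPM. Because the counting used no strand setting, reads of Baiap2l1 cannot be told apart from antisense transcripts there. Among 38 tested genes starting within 1000000 bases, r with Baiap2l1 ran from -0.712 (Arpc1a) to 0.566 (Arpc1b). Of these 38, 4 had a p under 0.01 in at least 1 of the 5 comparisons, as did 5.83% of all tested genes, namely Gm43398 (DHA in Tg2576, log2 fold change -1.67), Tecpr1 (genotype under DHA, -0.27), Arpc1b, a subunit of the actin-nucleating Arp2/3 complex (genotype under DHA, 0.45), and Ptcd1 (genotype under vehicle, -0.30). The nearest starts were those of Gm15708 on the side of lower coordinates and of Nptx2, a neuronal pentraxin, on the other (144545902, with 38.7, 30.1 and 35.6 CPM in Tg2576 DHA mice 1 to 3).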

How the data were processed

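Deposited files hold raw read counts of 55401 genes for each of 15 mice, which the authors made with FastQC 0.11.8, STAR 2.6.1c and featureCounts 1.6.0 per the submitters' processing notes and the file headers. Reads were counted on GENCODE M25 exons (GRCm38) with no strand, pair or multi-mapping option, and reads shared by overlapping genes were left out. Among counts of 1 to 20, 76.6% to 81.1% were even, as arises when both ends of a pair are counted, so a count is not 1 independent fragment. The labels and the paper name different library kits. Total counts ranged from 17372864 to 46596489.

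Counts were analysed in R 4.3.3 with edgeR 4.0.16 (filterByExpr with a minimum count of 10, 19536 genes kept, TMM factors of 0.961 to 1.03, robust quasi-likelihood F test, two-sided, 1 coefficient per group). Calls were made at an unadjusted p of 0.01, and p-values were adjusted by the Benjamini-Hochberg method over all genes. The common biological coefficient of variation was 20.1%. Symbols came from GENCODE M21 and matched 55141 genes, and 1500015O10Rik and Mtss1l were matched as older symbols. Correlations used log2 CPM with a prior count of 2 and carry no p. The workflow was also tested on simulated data. The members and gene lists were chosen with earlier results of these data known. Named genes are the members, the list genes most abundant per length or called, the 5 genes most alike in pattern, and the genes nearest to Baiap2l1 or called within 1000000 bases of it. Genes named from alternative fits and from the check of the label lie outside this rule and were picked once their values had been seen. Promoter windows came from RefSeq. Alternatives were DESeq2 1.42.0, limma-voom (limma 3.58.1), no TMM factors, no filter, 10 counts in every mouse, no robust option, only the groups compared, the replicate number as a block, and each mouse left out. Figures were drawn with Python 3.11.15 and matplotlib 3.10.9.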

Additional observations from a re-analysis of the deposited data

Results flagged for a closer look

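WT DHA mouse 3 stood far above the other 3 WT DHA mice in all 8 choroid plexus markers, its gap to the next mouse being more than 0.829 of the group's range. Its values were 5603 CPM for Ttr, 103 CPM for Kl, 19.6 CPM for Folr1, 59.9 CPM for Clic6, 1061 CPM for Enpp2, 24.3 CPM for Aqp1, 32.7 CPM for Slc4a5 and 14.1 CPM for Otx2. Baiap2l1 was not among these genes (3.16 CPM in this mouse). For normally distributed values this limit flags about 1 in 20 groups, and 27 combinations of gene and group were looked at. The values used were CPM, which are skewed toward high values here, so that rate need not hold. In log2 CPM, Ttr was 5.07, 8.25, 12.45 and 6.89 in WT DHA mice 1 to 4, where the gap is a smaller part of the range. The 8 markers vary together, so these 8 results amount to 1 observation on 1 mouse. The Tg2576 DHA group, with 3 mice, was too small to be examined in this way, so the high Baiap2l1 values of mice 2 and 3 are not among these results.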

How the results depend on the processing

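The number of called choroid plexus markers remained 0 of 8 in all 5 comparisons under every alternative run and without any 1 mouse. Their p-values were less stable. Under genotype under DHA the lowest unadjusted p over these fits (edgeR, DESeq2 or limma-voom) ran from 0.0112 for Otx2 to 0.0346 for Clic6. The lowest adjusted p of a marker there was 0.558. Of the 43 further genes, genotype under DHA called 1 with DESeq2 (Slc5a5), 2 with limma-voom (Slco1a5 and Slc5a5), 1 with the replicate block (Slc5a5) and 0 to 7 without 1 mouse, with 7 reached without WT DHA mouse 3 (1.76% of all genes). That mouse was the only WT DHA mouse of the higher set. Slc5a5 had r = 0.509 with the choroid plexus level, and its lower mice (up to 27.2 CPM) overlapped its higher mice (from 18.7 CPM). Slco1a5 reached at most 1.03 CPM. The interaction called 1 with limma-voom (Slco1a5) and 0 to 1 without 1 mouse, and DHA in WT 0 to 1. For Ttr, genotype under vehicle turned to 0.30 with limma-voom and to 0.19 with the replicate block, and ran from -1.56 to 0.36 without 1 mouse, and DHA in WT ran from -3.36 to 0.77. The median log2 fold change of the 8 markers under genotype under DHA was 2.47 with limma-voom, and without 1 mouse the median ran from -0.91 to 0.52 (genotype under vehicle), 0.88 to 3.06 (genotype under DHA), -2.05 to 0.34 (DHA in WT), 0.63 to 1.77 (DHA in Tg2576) and 0.75 to 3.10 (interaction). Baiap2l1 ran from -0.61 to 0.35 (genotype under vehicle, also positive at 0.023 without Tg2576 vehicle mouse 3) and from -0.94 to 0.13 (DHA in WT) without 1 mouse. With the choroid plexus level as a covariate, added after seeing the data, these were -0.029 and -0.0029. The r of Baiap2l1 with the choroid plexus level was 0.839 as Spearman's rho, 0.671 on deviations from group means, 0.675 without WT vehicle mouse 2 and WT DHA mouse 1 (farthest from the median), 0.934 without both high mice, 0.927 over the 12 mice outside Tg2576 DHA (both chosen after seeing the data), 0.495 in the 7 lower and 0.193 in the 8 higher mice, and 0.699 to 0.788 without 1 mouse. The median r between markers was 0.918 (Spearman's rho), 0.770 and 0.777 in the lower and higher mice, and 0.960 to 0.972 without 1 mouse. The cause of these shifts was not tested. Same-numbered mice deviated together about as much as other mice (21 pairs, r from -0.244 to 0.213, 4 over 0.1). For pairs with other numbers r ran from -0.235 to 0.230 (63 pairs, 12 over 0.1). No pairing by number was seen in this way, which cannot exclude one. The replicate block changed no other call among the markers, the further genes and Baiap2l1. Over all genes, DHA in Tg2576 called 69 genes, 126 with DESeq2, 126 without the filter and 29 with only the groups compared. The interaction called 162, 247 with DESeq2 and 289 without the filter, DHA in WT 270 and 431 with only the groups compared, and genotype under DHA 342 and 157 with the choroid plexus level as a covariate. Without 1 mouse the counts ran from 312 to 965 (genotype under vehicle, 604 with all mice), 190 to 460 (genotype under DHA), 156 to 331 (DHA in WT), 53 to 312 (DHA in Tg2576) and 87 to 527 (interaction), the last 2 highest without Tg2576 DHA mouse 1. The lowest count of a marker in any mouse was 762 for Ttr and 8 for Slc4a5.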
